A study of Homo sapiens with 24 samples.

Results

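The genes described here are 37 genes of the endoplasmic reticulum (ER) stress response and of the amino acid response driven by the transcription factor ATF4, in RNA-seq of T/C-28a2 cells, an immortalized human chondrocyte line. They were named by symbol, and all 37 matched an Ensembl identifier among the 62703 in the count tables. They were read as 2 lists, 21 genes of ER folding, ER-associated degradation (ERAD) and ER stress sensing, and 16 ATF4-type genes. Of the 37, 35 passed the filter on low counts and were tested together with all 16600 genes that passed, and DDIT3 and ASNS did not pass.

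The 6 groups held 4 libraries each. WT Ctr cells were the unmodified line kept for 7 days in isotonic medium of 300 mOsm, and WT Sor cells spent the same 7 days in medium brought to 400 mOsm with 100 mM sorbitol. WNK2 trans Ctr and WNK2 trans Sor cells were the unmodified line transfected with a plasmid encoding the kinase WNK2 and, after 48 h, moved to the isotonic or the sorbitol medium. WNK2- Ctr and WNK2- Sor cells were a CRISPR line with exon 2 of WNK2 deleted, in the same media. The WNK2- line was grown from a single cell, so the deletion and the clone cannot be told apart, and the comparison cells of the transfected groups were untransfected, so the plasmid's product and the transfection cannot be told apart. The labels number the replicates without naming separate cultures, so p-values measure the spread between these libraries. In bulk RNA, fewer cells with a transcript and less of it per cell cannot be told apart.

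The ER folds and secures the proteins that a cell secretes or places in its membranes, and cartilage cells, which export collagen and proteoglycans, depend heavily on it. When unfolded protein builds up, the sensors IRE1 (gene ERN1), PERK (gene EIF2AK3) and ATF6 respond. IRE1 splices the mRNA of XBP1 into the form that encodes an active factor, ATF6 is cut to release a factor, and these raise chaperones and ERAD genes. PERK phosphorylates the initiation factor eIF2α, which slows translation and at the same time favours translation of ATF4. Other kinases, which sense amino acid shortage, double-stranded RNA or haem shortage, act on eIF2α too, so ATF4 target genes can change apart from ER chaperones. ATF4 acts on genes for serine and one-carbon synthesis, amino acid transporters and feedback regulators.

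Total counts ran from 14153002 to 25664619 per library, and the members took 0.7372% to 0.9343% of them. WNK2 reads did not follow the labels in several groups. Normalized WNK2 counts, that is, counts scaled to the mean effective library size, were 1441 to 3409 in the libraries labelled WT Ctr and 2245 to 3793 in WNK2 trans Sor, against 282.8 to 319 in WT Sor, 183.3 to 296 in the libraries labelled WNK2 trans Ctr and, in the WNK2- libraries, 387.9 to 417.3 (isotonic) and 311.1 to 419.4 (sorbitol). The libraries labelled WT Ctr thus held many WNK2 reads and those labelled WNK2 trans Ctr few. The libraries labelled WT Sor, from unmodified cells, were below WT Ctr (-3.06 ± 0.21, log2) and no higher than the deletion line in the same medium (WNK2- Sor against WT Sor 0.25 ± 0.20, adjusted p = 0.330), so WNK2 reads do not set this group, the reference of 2 comparisons, apart from the deletion line. Each direction drawn from the isotonic groups is given with its label, and with the value against the other isotonic group where that ends a call. Defining cartilage markers were low: COL2A1 had a median of 2.04 CPM (counts scaled by the library total) and ACAN 2.19. SOX9 and CHAD were listed at 0 in all 24 libraries. ACSF2, on the opposite strand, covers 15% of the exon bases of CHAD. The zeros of SOX9 and CHAD were not read as absence of the transcripts, and their cause was not tested. Markers of other cell types went both ways. Among fibroblast-type collagens COL1A1 had a median of 2610 CPM and COL3A1 354, but COL1A2 0.304. Among epithelial markers KRT18 had 319, but EPCAM 0.768 and CDH1 0.322. The endothelial markers PECAM1 and CDH5 had 29.3 and 11.2. Of the blood markers CD14 had 6.64 and PTPRC 0.118. HAPLN1, which encodes the cartilage link protein, had a median of 58.2 CPM (12.5 to 162) and made up most of the summed marker level. The summed level of the 10 cartilage markers was 57.66 to 167.6 CPM in the 16 libraries without the deletion and 17.61 to 24.6 in the 8 WNK2- libraries. Their part in the results below was not tested.

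Promoters were read because the ER factors and ATF4 recognise known DNA elements. RefSeq windows on GRCh38.p14, from 250 bases before to 50 after each start, were held for 34 of the 37 members (48 windows). The ER stress response element searched, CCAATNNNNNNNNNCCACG on either strand, was in windows of 7 members, HSPA5, HSP90B1, CALR, CANX, PDIA6, CRELD2 and XBP1, all of the ER list (35% of its 20 matched genes), and in 0.0916% of all 27305 genes with a window. The related ERSE-II element, ATTGGNCCACG, was in SDF2L1, HYOU1 and HERPUD1, against 0.0696% of all genes. The XBP1-type core TGACGTGG was in HYOU1 alone among members, against 0.927% of all genes, where it overlaps an ERSE-II match. The ATF4 composite letters TGATGNAA were in HERPUD1, CHAC1, ASNS and SLC3A2, against 4.46% of all genes. None of the 14 matched ATF4-type genes held an ERSE, an ERSE-II or the core. Each is a match of letters and not a shown binding site.

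The 250 bases before the start of 6 members are printed 5′ to 3′ on the gene's strand, with matches in capitals, as examples of these letters. Only members with a match were printed, so they do not show how the classes of genes differ. CHAC1 was the only feedback gene with a match. HSPA5 lies at chr9:125241344-125241593, minus strand, HSP90B1 at chr12:103930160-103930409, plus strand, HYOU1 at chr11:119057206-119057455, minus strand, HERPUD1 at chr16:56931892-56932141, plus strand, XBP1 at chr22:28800570-28800819, minus strand and CHAC1 at chr15:40953221-40953470, plus strand, in GRCh38.p14.
HSPA5: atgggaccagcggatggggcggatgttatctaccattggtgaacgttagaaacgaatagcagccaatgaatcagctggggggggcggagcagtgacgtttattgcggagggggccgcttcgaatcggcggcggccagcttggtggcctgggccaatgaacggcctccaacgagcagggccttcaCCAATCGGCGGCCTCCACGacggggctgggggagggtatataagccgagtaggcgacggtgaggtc
HSP90B1: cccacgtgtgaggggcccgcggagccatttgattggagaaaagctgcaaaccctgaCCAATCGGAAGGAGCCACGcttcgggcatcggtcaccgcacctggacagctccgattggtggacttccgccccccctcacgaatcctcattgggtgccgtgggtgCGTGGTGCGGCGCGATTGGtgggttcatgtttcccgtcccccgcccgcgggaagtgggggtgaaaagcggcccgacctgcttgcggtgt
HYOU1: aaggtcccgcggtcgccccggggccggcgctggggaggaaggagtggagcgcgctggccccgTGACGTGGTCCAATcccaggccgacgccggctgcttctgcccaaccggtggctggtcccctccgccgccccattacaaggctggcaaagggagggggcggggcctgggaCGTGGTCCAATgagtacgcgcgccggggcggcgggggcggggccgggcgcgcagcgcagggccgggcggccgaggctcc
HERPUD1: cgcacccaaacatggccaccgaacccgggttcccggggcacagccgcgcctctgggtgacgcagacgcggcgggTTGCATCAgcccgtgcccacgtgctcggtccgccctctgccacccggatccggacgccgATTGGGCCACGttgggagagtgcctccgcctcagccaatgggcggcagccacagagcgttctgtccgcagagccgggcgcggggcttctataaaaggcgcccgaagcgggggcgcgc
XBP1: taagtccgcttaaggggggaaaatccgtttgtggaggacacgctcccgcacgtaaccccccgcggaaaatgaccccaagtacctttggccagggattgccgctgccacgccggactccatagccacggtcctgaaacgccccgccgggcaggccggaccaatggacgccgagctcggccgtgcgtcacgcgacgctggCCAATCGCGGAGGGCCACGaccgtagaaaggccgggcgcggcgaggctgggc
CHAC1: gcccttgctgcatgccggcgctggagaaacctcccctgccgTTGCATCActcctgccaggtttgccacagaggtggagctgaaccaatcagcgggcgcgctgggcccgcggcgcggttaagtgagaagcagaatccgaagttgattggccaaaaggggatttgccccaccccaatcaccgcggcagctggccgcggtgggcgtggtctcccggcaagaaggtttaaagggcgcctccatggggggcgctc
The ERSE of HSPA5 began 66 bases before the start and that of XBP1 52 bases before it. HSP90B1 held 2, beginning 194 and 89 bases before the start. HYOU1 held 2 ERSE-II matches. HERPUD1 held both an ERSE-II, from 117 bases before the start, and an ATF4 composite match, from 176 bases before it. In CHAC1 the capitals are the ATF4 composite match, from 209 bases before the start.

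Levels per length, in FPKM (normalized counts scaled by library size and exon length) averaged over the 24 libraries, put the chaperones CALR (379.7) and HSPA5 (266.1) at the top of the ER list and the sensor ERN1 (1.497) at its foot. Among ATF4-type genes, ATF4 itself (193.7) and CEBPB (179.7) stood highest, and NUPR1 (0.2742) was the lowest that was tested. In the next paragraphs values are normalized counts, which compare libraries and not genes, listed for replicates 1 to 4, and positions are those of GENCODE 29 on GRCh38.

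The sensors come first. ERN1 encodes IRE1, the kinase and nuclease that splices XBP1 mRNA (ENSG00000178607, chr17:64039142-64130819, minus strand). In isotonic medium ERN1 stood at 199, 223, 234 and 254 in WT Ctr, at 286, 278, 173 and 299.9 in WNK2 trans Ctr and at 299, 277, 323 and 352 in WNK2- Ctr. Under sorbitol ERN1 stood at 329, 314, 357 and 286 in WT Sor, at 259, 350.3, 308 and 287 in WNK2 trans Sor and at 415, 378, 335 and 354 in WNK2- Sor. Every WT Sor library lay above every WT Ctr library, and WNK2 trans Ctr 3 stood apart below its group. EIF2AK3 encodes PERK (ENSG00000172071, chr2:88556741-88627576, minus strand). The EIF2AK3 counts were 238, 296, 456 and 402 in WT Ctr, 491, 379, 239.5 and 353 in WNK2 trans Ctr and 189, 271, 259 and 259 in WNK2- Ctr. For sorbitol the EIF2AK3 counts were 391, 379, 414 and 367 in WT Sor, 244, 314, 389 and 285 in WNK2 trans Sor and 342, 262, 291 and 284 in WNK2- Sor. The isotonic groups overlapped widely for EIF2AK3, which ranged more than 1.5-fold within both WT Ctr and WNK2 trans Ctr. ATF6 (ENSG00000118217, chr1:161766294-161964070, plus strand) is the sensor that becomes a factor when cut. Without sorbitol ATF6 measured 1574, 2132, 2152 and 1756 in WT Ctr, 2027, 1904, 1673 and 1682 in WNK2 trans Ctr and 1544, 1602, 1719 and 1669 in WNK2- Ctr. With sorbitol ATF6 measured 1606, 1668, 1782 and 1649 in WT Sor, 1539, 2212, 2165 and 1933 in WNK2 trans Sor and 1692, 1456, 1728 and 1600.4 in WNK2- Sor. All 6 groups overlapped for ATF6. XBP1 (ENSG00000100219, chr22:28794555-28800597, minus strand) is the factor made active by splicing, and gene counts do not separate its spliced form. For XBP1 the isotonic libraries gave 2272, 2861, 2259 and 2076 (WT Ctr), 2362, 2532, 2965 and 2829 (WNK2 trans Ctr) and 1463, 1443, 1548 and 1420.3 (WNK2- Ctr). For XBP1 the sorbitol libraries gave 2710.1, 2645, 3010.3 and 2871 (WT Sor), 2168, 2101, 1865 and 1798 (WNK2 trans Sor) and 1562, 1348, 1624 and 1479 (WNK2- Sor). The 8 WNK2- libraries held the lowest XBP1 counts, all under every other library.

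HSPA5 encodes BiP, the main Hsp70 chaperone of the ER lumen and a repressor of the sensors (ENSG00000044574, chr9:125234853-125241330, minus strand). In isotonic medium HSPA5 stood at 20904, 24437, 20303 and 21119 in WT Ctr, at 17126, 18649, 20598 and 16634 in WNK2 trans Ctr and at 21291, 20535, 21114 and 20997 in WNK2- Ctr. Under sorbitol HSPA5 stood at 16453, 16469, 16390 and 15976 in WT Sor, at 19407, 18582, 17996 and 18663 in WNK2 trans Sor and at 18613, 17782, 19616 and 18616 in WNK2- Sor. WT Sor was the lowest group for HSPA5, with no library reaching any other group's. HSP90B1 encodes GRP94, the Hsp90 of the lumen (ENSG00000166598, chr12:103930107-103953645, plus strand). The HSP90B1 counts were 5127, 6692, 6384 and 5453 in WT Ctr, 5473, 5742, 4804 and 4550.4 in WNK2 trans Ctr and 4481, 4682, 4770.4 and 4869 in WNK2- Ctr. For sorbitol the HSP90B1 counts were 3952, 4013, 4236 and 3991 in WT Sor, 3639, 4461, 4783 and 4165 in WNK2 trans Sor and 3616, 2904, 3711 and 3364 in WNK2- Sor. Counts of HSP90B1 were lower under sorbitol in WT and in WNK2- cells without overlap. HYOU1 encodes a large Hsp70-type nucleotide exchange factor (ENSG00000149428, chr11:119044189-119057202, minus strand). Without sorbitol HYOU1 measured 5351, 4815, 4406 and 5236 in WT Ctr, 4716, 4632, 4842 and 4933 in WNK2 trans Ctr and 3530.4, 3593, 3361 and 3834 in WNK2- Ctr. With sorbitol HYOU1 measured 4993, 5062, 4428 and 4697 in WT Sor, 3666, 2816, 4057 and 3036 in WNK2 trans Sor and 2497, 3051, 2413 and 2731 in WNK2- Sor. WT Ctr and WT Sor overlapped for HYOU1, while both WNK2- groups lay under both. DNAJB9 is a J-domain co-chaperone of BiP that also holds IRE1 inactive (ENSG00000128590, chr7:108569568-108574850, plus strand). For DNAJB9 the isotonic libraries gave 447, 545, 552 and 494 (WT Ctr), 654, 606, 638 and 663 (WNK2 trans Ctr) and 324, 331, 331 and 302 (WNK2- Ctr). For DNAJB9 the sorbitol libraries gave 562, 610.5, 611 and 553 (WT Sor), 466, 574, 519 and 503 (WNK2 trans Sor) and 483, 374, 485 and 443 (WNK2- Sor). The isotonic WNK2- libraries were the lowest of all, and DNAJB9 rose within that genotype under sorbitol.

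CALR encodes calreticulin, a lectin chaperone for glycoproteins (ENSG00000179218, chr19:12938578-12944489, plus strand). In isotonic medium CALR stood at 26668, 26843, 19890 and 22769 in WT Ctr, at 18853, 22131, 28125 and 21962 in WNK2 trans Ctr and at 17137, 16310, 15019 and 16693 in WNK2- Ctr. Under sorbitol CALR stood at 20027, 20052, 18637 and 19311 in WT Sor, at 19982, 16339, 16585 and 17256 in WNK2 trans Sor and at 12615, 14122, 12712 and 14103 in WNK2- Sor. CALR was lowest in the WNK2- Sor libraries, under every library of the other groups. CANX encodes calnexin, its membrane-bound relative (ENSG00000127022, chr5:179678628-179730925, plus strand). The CANX counts were 12935, 16580, 15718 and 14719 in WT Ctr, 15179, 14722, 13326 and 13242 in WNK2 trans Ctr and 15519, 16159, 16296 and 17055 in WNK2- Ctr. For sorbitol the CANX counts were 13367, 13068, 13730 and 13304 in WT Sor, 13110, 14554, 16282 and 14733 in WNK2 trans Sor and 17953, 15603, 17915 and 17208 in WNK2- Sor. Every WNK2- Sor library held more CANX than every WT Sor library. SDF2L1, a component of an ER chaperone complex (ENSG00000128228, chr22:21642261-21644298, plus strand), varied more. Without sorbitol SDF2L1 measured 779, 452, 450.0 and 546 in WT Ctr, 451, 499, 774 and 606 in WNK2 trans Ctr and 574, 462, 357 and 439.8 in WNK2- Ctr. With sorbitol SDF2L1 measured 445, 448, 391 and 432 in WT Sor, 503, 236, 351 and 311 in WNK2 trans Sor and 303, 464, 391 and 383 in WNK2- Sor. Within WNK2 trans Sor, SDF2L1 ranged more than 2-fold. PDIA3 and PDIA4 are disulphide isomerases (ENSG00000167004, chr15:43746392-43773279, plus strand and ENSG00000155660, chr7:149003062-149028641, minus strand). For PDIA3 the isotonic libraries gave 12776, 14550, 10488 and 11264 (WT Ctr), 10256, 10651, 13808 and 9899 (WNK2 trans Ctr) and 10833, 10501, 10190 and 10550 (WNK2- Ctr). For PDIA3 the sorbitol libraries gave 9471, 9016, 9120.2 and 9289 (WT Sor), 10516, 9429, 8276 and 8880.3 (WNK2 trans Sor) and 8039, 7963, 7931 and 7994 (WNK2- Sor). The WT Sor and WNK2- Sor libraries lay under all their isotonic counterparts for PDIA3. In isotonic medium PDIA4 stood at 12082, 11440, 9894 and 10984 in WT Ctr, at 9234, 9923, 11462 and 9809.7 in WNK2 trans Ctr and at 8937, 8621, 7995 and 8527 in WNK2- Ctr. Under sorbitol PDIA4 stood at 8601, 8641, 8143 and 8434 in WT Sor, at 7240.4, 5880, 6299.6 and 6294 in WNK2 trans Sor and at 5626, 5781, 5255 and 5799 in WNK2- Sor. PDIA4 was lower under sorbitol in every library of each pair of groups.

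CRELD2 is a lumenal protein that is also secreted (ENSG00000184164, chr22:49918167-49927540, plus strand), and its group means were lowest under sorbitol in the transfected and WNK2- cells. The CRELD2 counts were 1189, 1288, 992 and 1028 in WT Ctr, 1071, 1127, 1688 and 1219 in WNK2 trans Ctr and 1001, 876, 893 and 830.5 in WNK2- Ctr. For sorbitol the CRELD2 counts were 1079, 1125, 959 and 1104 in WT Sor, 1062, 836, 736 and 759 in WNK2 trans Sor and 719, 909, 764 and 792 in WNK2- Sor. WNK2 trans Ctr 3 stood above the rest for CRELD2. SYVN1 encodes HRD1, the ubiquitin ligase of ERAD (ENSG00000162298, chr11:65121780-65134533, minus strand). Without sorbitol SYVN1 measured 1429, 1219, 1387 and 1409.8 in WT Ctr, 1665, 1411, 2031 and 1509.9 in WNK2 trans Ctr and 1156, 1025, 956 and 1039.6 in WNK2- Ctr. With sorbitol SYVN1 measured 1457, 1496, 1586 and 1581 in WT Sor, 1519.8, 1029.9, 1491 and 1262 in WNK2 trans Sor and 909.6, 955, 896 and 947 in WNK2- Sor. All 8 WNK2- libraries lay under every WT library for SYVN1. EDEM1, which hands misfolded glycoproteins to ERAD (ENSG00000134109, chr3:5187646-5219957, plus strand), was highest in WNK2 trans Sor. For EDEM1 the isotonic libraries gave 2226, 2269, 2675 and 2450.5 (WT Ctr), 2649, 2506, 2044 and 2559 (WNK2 trans Ctr) and 1929, 2037, 2325 and 2365 (WNK2- Ctr). For EDEM1 the sorbitol libraries gave 2761, 2847, 2898 and 2600.4 (WT Sor), 2639, 3304, 3684 and 2988 (WNK2 trans Sor) and 2621, 2344, 2908 and 2508 (WNK2- Sor). WNK2 trans Ctr and WNK2 trans Sor overlapped for EDEM1. The 5 other ER members not listed by library (DNAJC3, PDIA6, MANF, HERPUD1 and SEL1L) ranged from 1107 normalized counts, in MANF, to 3928, in PDIA6.

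ATF4 (ENSG00000128272, chr22:39519695-39522685, plus strand) is controlled largely through translation, so its mRNA need not follow its protein. In isotonic medium ATF4 stood at 12095, 11309, 7786 and 8938 in WT Ctr, at 9265, 10062, 14896 and 11896 in WNK2 trans Ctr and at 8172, 7214, 6663 and 6983 in WNK2- Ctr. Under sorbitol ATF4 stood at 10987, 10775, 10691 and 11263 in WT Sor, at 9804, 6611, 6844 and 6774 in WNK2 trans Sor and at 5951, 6812, 6197 and 6625 in WNK2- Sor. WNK2 trans Sor 1 stood above the rest of its group, and each WNK2- Sor library lay under every WT Sor library. DDIT3 encodes CHOP, the ER stress factor tied to cell death (ENSG00000175197, chr12:57516588-57521737, minus strand). The DDIT3 counts were 0, 0, 0 and 0 in WT Ctr, 0, 0, 0 and 2.298 in WNK2 trans Ctr and 0, 0, 0 and 0 in WNK2- Ctr. For sorbitol the DDIT3 counts were 0, 0, 0 and 0 in WT Sor, 0, 0, 0 and 0 in WNK2 trans Sor and 0, 0, 0 and 0 in WNK2- Sor. The lone value came from 2 counted reads. Of the exon bases of DDIT3, 27.2% are covered by MARS1 on the opposite strand and 8.03% by ENSG00000285133, and of those of ASNS, 44.6% by ENSG00000284707 on the same strand, which held 245 to 562 counts. MBD6 covers a further 4.44% of DDIT3. The zeros in DDIT3 and ASNS were not read as absence of the transcripts, and their cause was not tested.

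NUPR1, a small stress-induced chromatin protein (ENSG00000176046, chr16:28532708-28539174, minus strand), was counted in few reads. Without sorbitol NUPR1 measured 39.8, 4.74, 12.98 and 27.9 in WT Ctr, 37.3, 51.6, 98.95 and 36.8 in WNK2 trans Ctr and 20.8, 18.2, 15.5 and 15.8 in WNK2- Ctr. With sorbitol NUPR1 measured 29.4, 40.6, 58.8 and 51.05 in WT Sor, 24.1, 20.1, 9.51 and 9.18 in WNK2 trans Sor and 8.88, 21.7, 7.73 and 24.3 in WNK2- Sor. Its group means were highest in WT Sor and in the libraries labelled WNK2 trans Ctr. Feedback genes follow. PPP1R15A encodes GADD34, which directs a phosphatase to eIF2α (ENSG00000087074, chr19:48872392-48876057, plus strand). For PPP1R15A the isotonic libraries gave 2808, 1204, 1210.5 and 2421 (WT Ctr), 1668, 1764, 2675 and 2295 (WNK2 trans Ctr) and 2565, 2057, 1802 and 2192 (WNK2- Ctr). For PPP1R15A the sorbitol libraries gave 3233, 3334, 3092 and 3144 (WT Sor), 7411, 2991, 4081 and 4426 (WNK2 trans Sor) and 2970.5, 4464, 2786 and 3763 (WNK2- Sor). PPP1R15A was highest in WNK2 trans Sor 1 and lay higher under sorbitol in every library of each of the 3 pairs of groups. TRIB3 is a pseudokinase that inhibits ATF4 (ENSG00000101255, chr20:362835-397559, plus strand). In isotonic medium TRIB3 stood at 2484, 2264, 1859.5 and 2133 in WT Ctr, at 1848, 1917, 2334 and 2186 in WNK2 trans Ctr and at 3042, 2659.6, 2764 and 2636 in WNK2- Ctr. Under sorbitol TRIB3 stood at 3586, 3541, 4169 and 3874 in WT Sor, at 3413, 2619, 2639.9 and 2602 in WNK2 trans Sor and at 2956, 3399.9, 3428 and 3271 in WNK2- Sor. WT Sor was above all other groups for TRIB3. CHAC1 breaks down glutathione (ENSG00000128965, chr15:40952962-40956519, plus strand). The CHAC1 counts were 321, 104, 161 and 223 in WT Ctr, 224, 269, 425 and 377 in WNK2 trans Ctr and 318, 337, 339.6 and 282 in WNK2- Ctr. For sorbitol the CHAC1 counts were 731, 711, 701 and 763 in WT Sor, 363, 131, 164 and 239 in WNK2 trans Sor and 313, 417, 307 and 404 in WNK2- Sor. Each WT Sor library held 701 or more normalized counts of CHAC1, and the other 20 libraries 425 or fewer. SESN2 and DDIT4 restrain the growth kinase mTORC1 (ENSG00000130766, chr1:28259527-28282491, plus strand and ENSG00000168209, chr10:72273920-72276036, plus strand). Without sorbitol SESN2 measured 696, 432, 571 and 641 in WT Ctr, 665, 676, 913 and 820.5 in WNK2 trans Ctr and 639.6, 586, 539.6 and 611 in WNK2- Ctr. With sorbitol SESN2 measured 1002, 1004, 1140.4 and 1111 in WT Sor, 842, 471, 672 and 616 in WNK2 trans Sor and 656, 785, 658 and 719 in WNK2- Sor. WT Sor was again the highest group for SESN2. For DDIT4 the isotonic libraries gave 1121, 479.6, 554 and 762 (WT Ctr), 1445, 1467, 1877 and 1871 (WNK2 trans Ctr) and 647, 592, 589 and 596 (WNK2- Ctr). For DDIT4 the sorbitol libraries gave 1676, 1640.3, 1782 and 1818 (WT Sor), 738, 306, 377 and 415 (WNK2 trans Sor) and 289, 379, 281 and 328 (WNK2- Sor). For DDIT4 the libraries labelled WNK2 trans Ctr were as high as WT Sor, and WNK2 trans Sor and WNK2- Sor were low.

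Among enzymes of serine and one-carbon synthesis, PHGDH catalyses the committed step to serine (ENSG00000092621, chr1:119648411-119744226, plus strand). In isotonic medium PHGDH stood at 7644, 5949.6, 5122 and 5810.4 in WT Ctr, at 5905, 6233, 8579.7 and 7723 in WNK2 trans Ctr and at 5619, 4942, 4899 and 4923 in WNK2- Ctr. Under sorbitol PHGDH stood at 6668, 6191, 6505 and 6835 in WT Sor, at 4806, 3121, 3622 and 3867 in WNK2 trans Sor and at 3194, 3918, 3455 and 3749.5 in WNK2- Sor. By group mean PHGDH was lowest in WNK2 trans Sor and WNK2- Sor. MTHFD2 is the mitochondrial folate enzyme (ENSG00000065911, chr2:74198562-74217565, plus strand). The MTHFD2 counts were 944, 673, 1031 and 1042 in WT Ctr, 1159, 1344, 1132 and 1431 in WNK2 trans Ctr and 1174, 1178, 1178 and 1197 in WNK2- Ctr. For sorbitol the MTHFD2 counts were 1140, 1219, 1224 and 1253 in WT Sor, 825, 871, 866 and 672 in WNK2 trans Sor and 951, 855, 961 and 1071 in WNK2- Sor. In WNK2- cells MTHFD2 spread little, from 1174 to 1197 in isotonic medium. SLC7A5 encodes LAT1, the transporter of large neutral amino acids (ENSG00000103257, chr16:87830023-87869488, minus strand). Without sorbitol SLC7A5 measured 8634, 5202, 6234 and 8009 in WT Ctr, 5224, 5417, 6101 and 6179 in WNK2 trans Ctr and 12189, 11662, 11063 and 12084 in WNK2- Ctr. With sorbitol SLC7A5 measured 6072, 6182, 6122 and 6413 in WT Sor, 7414, 3991, 6298 and 6319 in WNK2 trans Sor and 5884, 6745, 6006 and 6651 in WNK2- Sor. SLC7A5 counts in WNK2- Ctr, at 11063 or more, were above all other libraries. The 4 other tested members of this list (CEBPB, PSAT1, SHMT2 and SLC3A2) ranged from 2884 normalized counts, in PSAT1, to 10136, in CEBPB.

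**Figure D1:**
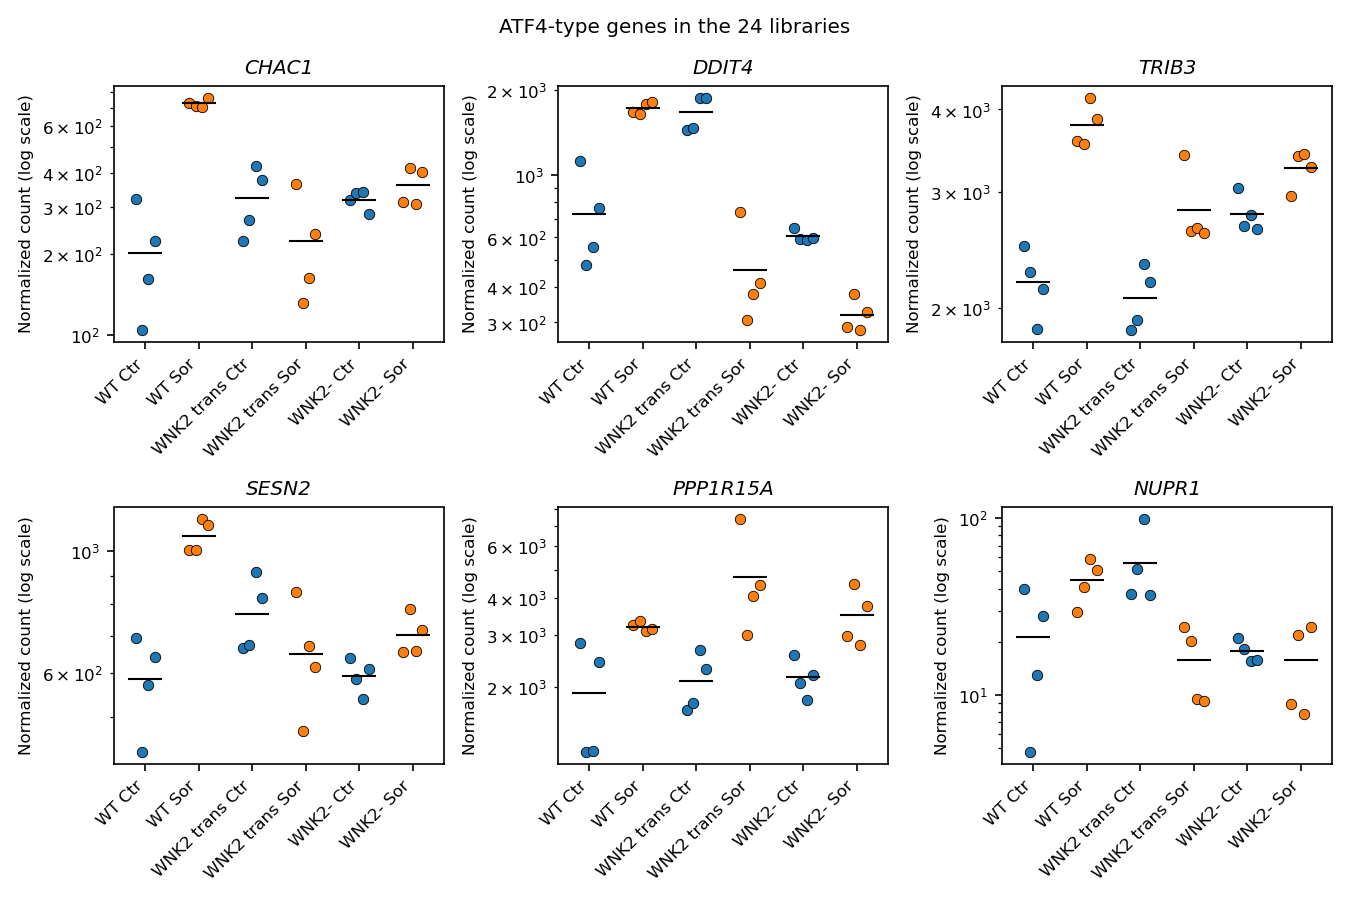
Normalized counts of ATF4-type genes in each of the 24 libraries on a log axis, with the mean of each group of 4 as a line and no error bar. CHAC1 sits at 701 to 763 in WT Sor and at 425 or less in every other library, while DDIT4 is high in WT Sor and in the libraries labelled WNK2 trans Ctr.

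The spread between libraries differed by group. The coefficient of variation over 4 libraries had a median of 19.8% over the 14 tested ATF4-type genes in WT Ctr, 4.09% in WT Sor, 17.9% in WNK2 trans Ctr, 23.8% in WNK2 trans Sor, 7.3% in WNK2- Ctr and 8.8% in WNK2- Sor. Over the 10476 genes with a mean of 100 counts or more it was 17%, 5.63%, 12.5%, 15.2%, 7.23% and 9.02% in the same order. The main fit used 1 shared spread per gene for all 6 groups, so its p-values do not follow these differences between groups. A single library held the highest value of most ATF4-type genes in a group: WT Ctr 1 for 12 of 14 (against 30.5% of the 10476 genes), WNK2 trans Ctr 3 for 11 (43.1%), WNK2 trans Sor 1 for 12 (35.9%), WNK2- Ctr 1 for 12 (42.5%) and WNK2- Sor 2 for 10 (33.3%). The members of this list thus do not vary independently between libraries of a group.

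Folds below are log2 differences ± standard error, called where the adjusted p of edgeR's quasi-likelihood test was under 0.05 over all 16600 genes; rose and fell mean called. In each comparison the share of all genes called is the background for the count of members. Since the lists were chosen with earlier results of these data known, a share above or below it is a description and not a test. The WT Ctr libraries serve as reference in 3 of the 7 pairwise comparisons and enter both interactions, and WT Sor and the other groups are also shared, so the comparisons are not independent of each other. Sorbitol in WT cells and sorbitol in WNK2- cells share no library.

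**Figure D2:**
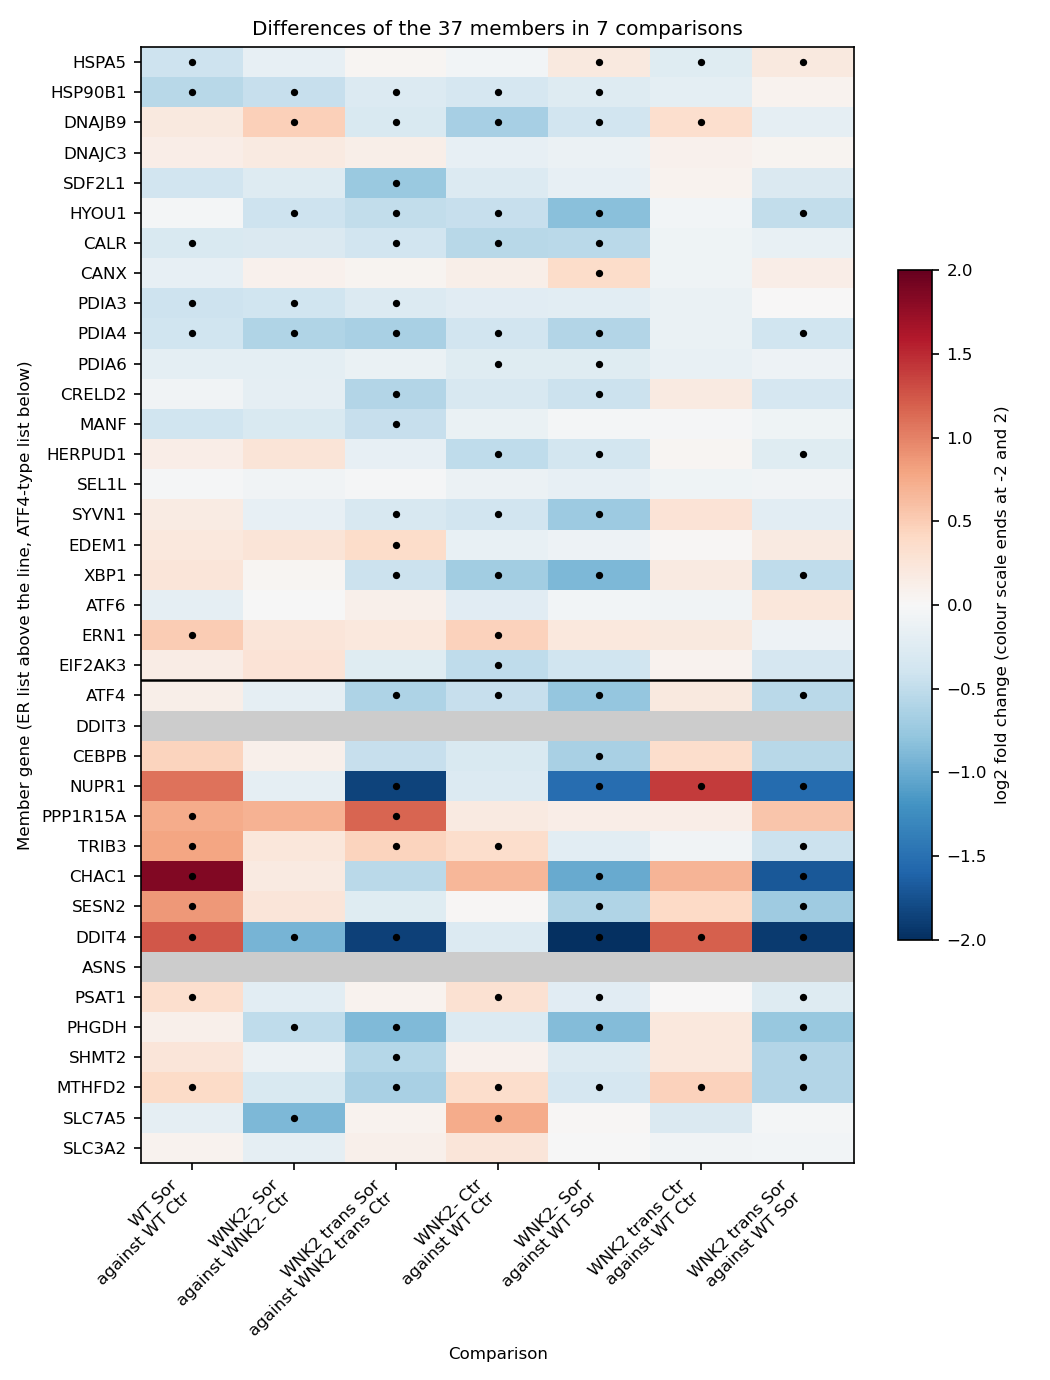
Log2 differences of the 37 members (rows, by role) in the 7 pairwise comparisons (columns). Dots mark calls and grey cells genes that were not tested. DDIT4, at -2.44 in WNK2- Sor against WT Sor, is the lowest value and lies past the end of the colour scale.

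With chronic sorbitol in WT cells (WT Sor against WT Ctr) 5 of 5 ATF4-type feedback genes were higher, and 3 of 8 ER chaperones and 2 of 3 oxidoreductases were lower. Of 14 tested ATF4-type genes 7 rose and the other 7 did not pass: CHAC1 (1.85 ± 0.27, adjusted p = 2.57e-05), DDIT4 (1.25 ± 0.22, adjusted p = 0.000170), SESN2 (0.86 ± 0.15, adjusted p = 0.000143), TRIB3 (0.80 ± 0.10), PPP1R15A (0.74 ± 0.25), MTHFD2 (0.39 ± 0.12) and PSAT1 (0.33 ± 0.091), the last an enzyme of serine synthesis. All 4 WT Sor libraries lay above all 4 WT Ctr libraries for each of the 7. These genes were picked by their calls in the same libraries, so this separation is no further evidence. Its share over all genes was not counted, here or below. ATF4 itself was at 0.12 ± 0.14 and did not pass. In the ER list 5 of 21 genes fell: HSP90B1 (-0.55 ± 0.10, adjusted p = 0.000304), HSPA5 (-0.41 ± 0.072, adjusted p = 0.000210), PDIA3 (-0.41 ± 0.10), PDIA4 (-0.39 ± 0.080) and CALR (-0.30 ± 0.10). The sensor ERN1 rose (0.50 ± 0.14, adjusted p = 0.0120), and XBP1 (0.25 ± 0.097), EIF2AK3 (0.15 ± 0.19) and ATF6 (-0.18 ± 0.11) did not pass. Over all genes 24.1% were called, 11.4% higher and 12.7% lower. The ATF4-type share was above this background and the ER share near it. The list medians were 0.42 for ATF4-type and -0.076 for ER genes, against 0.035 over all genes.

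These directions come from the libraries labelled WT Ctr, which held many WNK2 reads. Against the libraries labelled WNK2 trans Ctr, whose WNK2 counts are near those of WT Sor, 15.1% of all genes were called (8.74% higher, 6.31% lower), with 4 ATF4-type genes higher, CHAC1 (1.17 ± 0.26), TRIB3 (0.87 ± 0.10), SESN2 (0.47 ± 0.15) and PSAT1 (0.33 ± 0.091), and 2 ER genes lower, HSP90B1 (-0.35 ± 0.10) and PDIA4 (-0.26 ± 0.080). The calls of DDIT4 (0.05 ± 0.21, adjusted p = 0.902), MTHFD2 (-0.07 ± 0.11, adjusted p = 0.761), PPP1R15A (0.61 ± 0.25, adjusted p = 0.106), HSPA5 (-0.16 ± 0.072, adjusted p = 0.142), PDIA3 (-0.27 ± 0.10, adjusted p = 0.0652), CALR (-0.22 ± 0.10, adjusted p = 0.165) and ERN1 (0.31 ± 0.14, adjusted p = 0.149) were not met there. CALR lost its call without any of 6 libraries (WT Ctr 1 and 2 and each WT Sor library, adjusted p 0.0616 to 0.140), PPP1R15A without any of 6 (WT Ctr 2 and 3 and each WT Sor library, 0.0537 to 0.126), and MTHFD2 without WT Ctr 2 (0.0687). The call of CALR also ended with upper-quartile scaling (0.063), without a filter (0.0937), with at least 10 counts in every library (0.0697) and with only these groups fitted (0.0923). With counts corrected for GC and exon length library by library, the ER count went from 6 to 13, with 6 genes higher and 7 lower. The calls over all 16600 genes went from 4008 to 5106. DNAJB9, DNAJC3, HERPUD1, EDEM1 and XBP1 were gained as higher and SDF2L1 and MANF as lower.

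In WNK2- cells under sorbitol (WNK2- Sor against WNK2- Ctr) 2 of 8 chaperones and 2 of 3 oxidoreductases were lower, 1 chaperone was higher, and 3 ATF4-type genes were lower. Of the ER list 4 genes fell, PDIA4 (-0.60 ± 0.080, adjusted p = 6.39e-06), HSP90B1 (-0.47 ± 0.10, adjusted p = 0.00168), HYOU1 (-0.42 ± 0.10, adjusted p = 0.00415) and PDIA3 (-0.40 ± 0.10, adjusted p = 0.00682), and DNAJB9 rose (0.47 ± 0.097, adjusted p = 0.00123). Of 14 ATF4-type genes 3 fell, DDIT4 (-0.92 ± 0.22, adjusted p = 0.00431), SLC7A5 (-0.89 ± 0.14, adjusted p = 6.18e-05) and PHGDH (-0.51 ± 0.13, adjusted p = 0.00716). For each of these 8 genes, picked by their calls, the WNK2- Sor and WNK2- Ctr libraries did not overlap, which is no further evidence. Over all genes 14.9% were called, 8.25% higher and 6.64% lower. CHAC1 (0.18 ± 0.26), TRIB3 (0.23 ± 0.10), SESN2 (0.25 ± 0.15) and PPP1R15A (0.70 ± 0.25) did not pass. Both lists were called somewhat more often than all genes, with the excess among the lower genes. Fitted without the other 4 groups, the counts were 11 ER and 8 ATF4-type genes, and with the GC and length correction 12 (4 higher, 8 lower) and 8 (4 higher, 4 lower). The calls over all genes rose as well, from 2473 of 16600 to 4824 of 15617 and 3894 of 16600 in these fits.

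**Figure D3:**
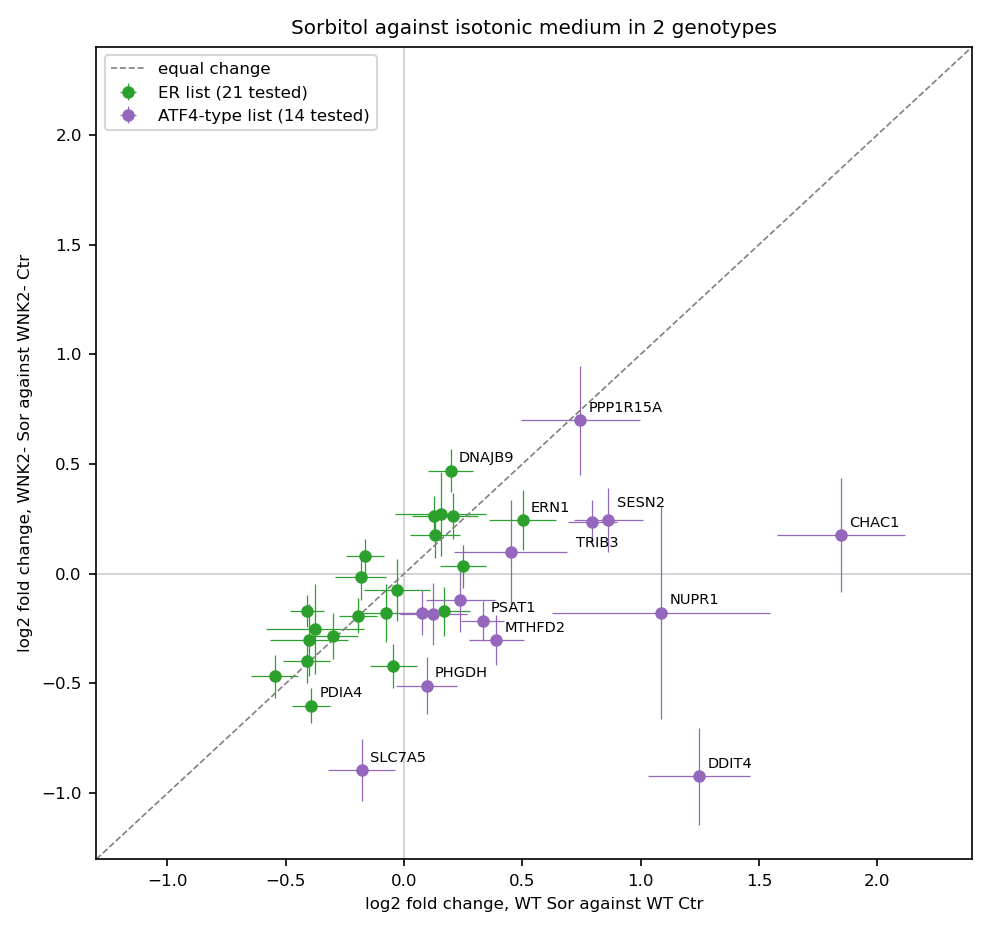
Log2 difference with sorbitol in WT cells (x axis) against that in WNK2- cells (y axis) for the tested members, with standard errors as bars and a dashed line of equal change. CHAC1 sits at 1.85 and 0.18, DDIT4 at 1.25 and -0.92, and HSP90B1 at -0.55 and -0.47.

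The interaction asks whether the sorbitol difference itself differed between genotypes. For 7 of 14 ATF4-type genes, a share well above the 8.65% of all genes, it was lower in WNK2- cells: DDIT4 (-2.17 ± 0.31, adjusted p = 4.34e-05), CHAC1 (-1.67 ± 0.37, adjusted p = 0.00575), MTHFD2 (-0.69 ± 0.16, adjusted p = 0.00817), SLC7A5 (-0.71 ± 0.20), PHGDH (-0.60 ± 0.18), TRIB3 (-0.56 ± 0.15) and PSAT1 (-0.55 ± 0.13). Of all genes 3.99% were higher and 4.66% lower. For the ER list edgeR called 0 of 21, with 4 at an unadjusted p under 0.05, and DESeq2 also called 0. The interval of the difference at 95% was -0.20 to 0.36 for HSP90B1 and -0.43 to 0.01 for PDIA4. PPP1R15A was at -0.05 ± 0.35 (interval -0.74 to 0.64). SLC7A5 lost its call without WT Ctr 2 or 3 or WNK2- Sor 1 or 3 (adjusted p 0.0501 to 0.0584), and PHGDH without any of 13 of the 16 libraries (0.0503 to 0.0857), all but WT Ctr 1 and 4 and WNK2- Sor 2. With the GC and length correction 3 ER genes were called, 1 higher and 2 lower, and with only these 4 groups fitted 1. The calls over all genes went from 1436 of 16600 to 2228 of 16600 and 2010 of 16144 in these fits. The interaction rests on the libraries labelled WT Ctr. With those labelled WNK2 trans Ctr in their place, an alternative chosen after the data were seen, 3.39% of all genes were called (1.09% higher, 2.3% lower), and 3 of the 7 ATF4-type genes: SLC7A5 (-1.01 ± 0.20, adjusted p = 0.00305), TRIB3 (-0.64 ± 0.15, adjusted p = 0.0104) and PSAT1 (-0.54 ± 0.13, adjusted p = 0.0140). The calls of DDIT4 (-0.98 ± 0.30, adjusted p = 0.0810), CHAC1 (-0.99 ± 0.37, adjusted p = 0.175), PHGDH (-0.39 ± 0.18, adjusted p = 0.326) and MTHFD2 (-0.23 ± 0.16, adjusted p = 0.593) were lost, and DNAJB9 of the ER list was called higher (0.60 ± 0.14, adjusted p = 0.00980).

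In isotonic medium the WNK2- libraries against WT Ctr were lower in 4 of 8 chaperones, 2 of 3 oxidoreductases, 2 of 4 ERAD genes and 2 of 4 sensors and factors. HSPA5, the main chaperone, was at -0.05 ± 0.072, adjusted p = 0.627 and did not pass. Of 21 ER genes 10 fell and ERN1 rose (0.46 ± 0.14, adjusted p = 0.0105). XBP1 (-0.69 ± 0.098, adjusted p = 3.53e-06), DNAJB9 (-0.66 ± 0.097, adjusted p = 5.86e-06) and CALR (-0.56 ± 0.11, adjusted p = 0.000124) fell most, and EIF2AK3 (-0.51 ± 0.19), HERPUD1 (-0.50 ± 0.093), HYOU1 (-0.47 ± 0.10), PDIA4 (-0.38 ± 0.080), SYVN1 (-0.38 ± 0.11), HSP90B1 (-0.33 ± 0.10) and PDIA6 (-0.24 ± 0.079) fell too. HERPUD1 is an ERAD adaptor. Of ATF4-type genes 4 rose, SLC7A5 (0.74 ± 0.14, adjusted p = 0.000146), MTHFD2 (0.36 ± 0.11), TRIB3 (0.34 ± 0.10) and PSAT1 (0.31 ± 0.091), and ATF4 fell (-0.47 ± 0.14, adjusted p = 0.00981). Over all genes 42.1% were called, 20.7% higher and 21.5% lower, so the 5 of 14 ATF4-type genes called are fewer than that share would give and the 11 of 21 ER genes somewhat more, with the excess among the lower genes.

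Against the libraries labelled WNK2 trans Ctr, 47.7% of all genes were called (24% higher, 23.7% lower), with 2 ER genes higher and 9 lower and 4 ATF4-type genes higher and 6 lower. XBP1 (-0.86 ± 0.098), DNAJB9 (-0.99 ± 0.097), CALR (-0.48 ± 0.10), ATF4 (-0.67 ± 0.14), SLC7A5 (1.04 ± 0.14) and TRIB3 (0.42 ± 0.10) held their directions and calls there. The calls of ERN1 (0.27 ± 0.14, adjusted p = 0.115), HSP90B1 (-0.13 ± 0.10, adjusted p = 0.298), PDIA6 (-0.09 ± 0.079, adjusted p = 0.388) and MTHFD2 (-0.10 ± 0.11, adjusted p = 0.496) were not met, and DDIT4 was lower (-1.46 ± 0.22) although it was at -0.27 ± 0.22 against WT Ctr. EIF2AK3 lost its call without WT Ctr 3 or 4 or WNK2- Ctr 1, 3 or 4 (adjusted p 0.0524 to 0.179), and PDIA6 and MTHFD2 each without WT Ctr 2 (0.0922 and 0.0755).

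Under sorbitol the WNK2- libraries against WT Sor were lower in most called members of both lists. Of 14 ATF4-type genes 9 fell and the rest did not pass: DDIT4 (-2.44 ± 0.22, adjusted p = 1.97e-09), NUPR1 (-1.53 ± 0.46, adjusted p = 0.00801), CHAC1 (-1.01 ± 0.26, adjusted p = 0.00232), PHGDH (-0.87 ± 0.13), ATF4 (-0.77 ± 0.14, adjusted p = 7.69e-05), CEBPB (-0.65 ± 0.24), SESN2 (-0.60 ± 0.15), MTHFD2 (-0.33 ± 0.11) and PSAT1 (-0.23 ± 0.091). CEBPB is a bZIP factor that pairs with ATF4. In the ER list 10 of 21 fell, led by XBP1 (-0.90 ± 0.098, adjusted p = 3.31e-08), HYOU1 (-0.84 ± 0.10, adjusted p = 1.43e-07) and SYVN1 (-0.72 ± 0.11, adjusted p = 8.49e-06), with PDIA4, CALR, CRELD2, DNAJB9, HERPUD1, HSP90B1 and PDIA6 between -0.59 and -0.24. CANX (0.36 ± 0.081, adjusted p = 0.000688) and HSPA5 (0.19 ± 0.072, adjusted p = 0.0311) rose. Over all genes 46.3% were called, 23.7% higher and 22.7% lower. The shares called were 64.3% of the ATF4-type list and 57.1% of the ER list, with the excess of both among the lower genes. HSPA5 lost its call with the GC and length correction (0.09, adjusted p 0.238) and without any of 7 libraries, all but WNK2- Sor 2 (0.0559 to 0.0999), and HSP90B1 without WT Sor 1, 2 or 3 or WNK2- Sor 2 or 4 (0.0575 to 0.156). The call of HSP90B1 was also lost with DESeq2 (-0.23, adjusted p 0.0546) and, in edgeR, with 2 other scalings of the libraries (0.0606 and 0.0661). Under these scalings PSAT1 lost its call too (0.0574 and 0.0648). CEBPB did so without WT Sor 4 or WNK2- Sor 1, 3 or 4 (0.0514 to 0.0741), PSAT1 without WT Sor 3 or 4 or WNK2- Sor 1, 2 or 4 (0.0676 to 0.11) and MTHFD2 without WNK2- Sor 2 (0.0689).

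Since the WNK2- cells are 1 clone, each member was set beside the median difference of up to 25 tested genes on either side of it on its chromosome. Beside DDIT4 these neighbours had a median of -0.24 under sorbitol, beside XBP1 -0.11, beside HYOU1 -0.12, beside CHAC1 0.34 and beside PHGDH 0.34. The widest was beside PPP1R15A, -0.49 in isotonic medium and -0.71 under sorbitol, where PPP1R15A itself was at 0.17 ± 0.25 and 0.13 ± 0.25 and did not pass. The part of the chromosome surroundings in these values was not tested.

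Few members differed by the transfection label in isotonic medium. Of 14 ATF4-type genes 3 were higher in the libraries labelled WNK2 trans Ctr than in those labelled WT Ctr, NUPR1 (1.40 ± 0.46, adjusted p = 0.0433), DDIT4 (1.19 ± 0.22, adjusted p = 0.000368) and MTHFD2 (0.46 ± 0.12, adjusted p = 0.00841). Of 21 ER genes DNAJB9 was higher (0.33 ± 0.096, adjusted p = 0.0238) and HSPA5 lower (-0.25 ± 0.072, adjusted p = 0.0228). Over all genes 12.5% were called, 5.57% higher and 6.98% lower, and the ATF4-type share was above and the ER share below that. Since WNK2 counts were low in the group labelled transfected and high in the group labelled control, these directions are those of the labels alone. NUPR1 lost its call without WT Ctr 2 or 3 or WNK2 trans Ctr 2 or 3 (adjusted p 0.0654 to 0.169), DNAJB9 without WT Ctr 1 or WNK2 trans Ctr 4 (0.0550 to 0.0722), and HSPA5 without WT Ctr 2 or WNK2 trans Ctr 1 or 4 (0.0818 to 0.108) or when GC and exon length were corrected for (-0.15, adjusted p 0.0916), and neither ER call was met when only these 2 groups were fitted.

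Under sorbitol the transfected cells were lower in ATF4-type genes than untransfected cells (WNK2 trans Sor against WT Sor). Of 14 genes 10 fell: DDIT4 (-1.92 ± 0.22, adjusted p = 2.94e-07), CHAC1 (-1.70 ± 0.27, adjusted p = 2.7e-05), NUPR1 (-1.53 ± 0.47, adjusted p = 0.0146), PHGDH (-0.77 ± 0.13), SESN2 (-0.71 ± 0.15), SHMT2 (-0.59 ± 0.15), MTHFD2 (-0.58 ± 0.12), ATF4 (-0.54 ± 0.14, adjusted p = 0.00494), TRIB3 (-0.43 ± 0.10) and PSAT1 (-0.25 ± 0.091). SHMT2 is the mitochondrial enzyme that turns serine into glycine and a one-carbon unit. The groups did not overlap for any of the 10, which were picked by their calls, so this is no further evidence. Among ER genes 4 of 21 fell, XBP1 (-0.50 ± 0.097, adjusted p = 0.000309), HYOU1 (-0.50 ± 0.10, adjusted p = 0.000433), PDIA4 (-0.40 ± 0.080, adjusted p = 0.000517) and HERPUD1 (-0.25 ± 0.093, adjusted p = 0.0454), and HSPA5 rose (0.19 ± 0.072, adjusted p = 0.0435). Of all genes 31.7% were called, 16.1% higher and 15.5% lower, a share that the ATF4-type genes passed and the ER genes did not reach. HSPA5 lost its call with the GC and length correction (0.05, adjusted p 0.537) and without any of the 8 libraries (0.0546 to 0.115), and HERPUD1 without any WT Sor library or WNK2 trans Sor 3 or 4 (0.0553 to 0.124). HERPUD1 also lost its call with RLE (0.0605) or upper-quartile (0.0901) scaling of the libraries and without a filter (0.078). NUPR1 did so without WNK2 trans Sor 3 or 4 (0.0504 to 0.0541) and PSAT1 without WT Sor 3 or 4 or WNK2 trans Sor 3 or 4 (0.0680 to 0.111), and after the GC and length correction TRIB3 was at -0.04 (adjusted p 0.725).

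Within the transfection labels, sorbitol (WNK2 trans Sor against WNK2 trans Ctr) went with lower ER genes and with ATF4-type genes in both directions. The ER list had 11 of 21 genes lower, led by SDF2L1 (-0.74 ± 0.21, adjusted p = 0.00507), PDIA4 (-0.65 ± 0.080, adjusted p = 3.2e-07) and CRELD2 (-0.59 ± 0.13, adjusted p = 0.000702), with HYOU1, MANF, XBP1, CALR, SYVN1, DNAJB9, HSP90B1 and PDIA3 between -0.49 and -0.27, and EDEM1 rose (0.37 ± 0.10, adjusted p = 0.00489). Of 14 ATF4-type genes PPP1R15A (1.17 ± 0.25, adjusted p = 0.000468) and TRIB3 (0.44 ± 0.10, adjusted p = 0.00100) rose, and 6 fell, DDIT4 (-1.86 ± 0.22, adjusted p = 1.67e-07), NUPR1 (-1.85 ± 0.47, adjusted p = 0.00205), PHGDH (-0.88 ± 0.13, adjusted p = 4.28e-06), MTHFD2 (-0.65 ± 0.12), ATF4 (-0.62 ± 0.14) and SHMT2 (-0.57 ± 0.15). Over all genes 48% were called, 24.3% higher and 23.7% lower. The shares of both lists were somewhat above that, with the excess among the lower genes. Against the libraries labelled WT Ctr, whose WNK2 counts are high as in WNK2 trans Sor, 39.2% of all genes were called (19.8% higher, 19.5% lower), with 2 ER genes higher and 11 lower and 2 ATF4-type genes higher and 3 lower. There PPP1R15A (1.31 ± 0.25) and TRIB3 (0.37 ± 0.10) rose and PDIA4 (-0.79 ± 0.081), DDIT4 (-0.67 ± 0.22), PHGDH (-0.67 ± 0.13) and ATF4 (-0.42 ± 0.14) fell too. The calls of NUPR1 (-0.45 ± 0.50, adjusted p = 0.506), MTHFD2 (-0.19 ± 0.12, adjusted p = 0.197), DNAJB9 (0.02 ± 0.096, adjusted p = 0.905), SYVN1 (-0.04 ± 0.11, adjusted p = 0.810) and SHMT2 (-0.35 ± 0.15, adjusted p = 0.0554) were not met. HSP90B1 lost its call without WNK2 trans Ctr 1 or 2 or WNK2 trans Sor 1 or 4 (adjusted p 0.0542 to 0.101), PDIA3 without WNK2 trans Ctr 3 or WNK2 trans Sor 3 or 4 (0.0705 to 0.229), MANF without WNK2 trans Ctr 3 or WNK2 trans Sor 2, 3 or 4 (0.0550 to 0.174) and SYVN1 without WNK2 trans Ctr 3 or WNK2 trans Sor 2 or 4 (0.0565 to 0.145). With upper-quartile scaling HSP90B1, PDIA3, MANF and SYVN1 were at adjusted p 0.0992, 0.115, 0.0544 and 0.0607. With only these groups fitted they were at 0.0991, 0.129, 0.0983 and 0.142. With the GC and length correction SDF2L1 was at -0.22 (adjusted p 0.0939) and SYVN1 at -0.10 (0.316).

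The interaction of the transfection label with sorbitol was called for 9 of 14 ATF4-type genes, all with a lower sorbitol difference under the transfection labels: DDIT4 (-3.11 ± 0.31, adjusted p = 2.11e-08), MTHFD2 (-1.04 ± 0.16, adjusted p = 1.97e-05), CHAC1 (-2.38 ± 0.38, adjusted p = 2.56e-05), NUPR1 (-2.94 ± 0.65), SESN2 (-1.11 ± 0.21), PHGDH (-0.98 ± 0.18), CEBPB (-0.90 ± 0.34), SHMT2 (-0.81 ± 0.21) and ATF4 (-0.74 ± 0.20). Of 21 ER genes XBP1 (-0.68 ± 0.14, adjusted p = 0.000426), DNAJB9 (-0.51 ± 0.14, adjusted p = 0.00501), HYOU1 (-0.45 ± 0.14), SYVN1 (-0.49 ± 0.16) and CRELD2 (-0.51 ± 0.19) had a lower sorbitol difference and HSPA5 a higher (0.44 ± 0.10, adjusted p = 0.00150). Of all genes 35.5% were called, 18.1% higher and 17.4% lower, a share that the ATF4-type genes passed and the ER genes did not. The interaction takes in both isotonic groups whose WNK2 counts go against their labels. After the GC and length correction HSPA5 was at 0.20 (adjusted p 0.0665), CEBPB at -0.04 (0.820) and SYVN1 at -0.26 (0.0809), while the ER count went from 6 to 11 (1 higher, 10 lower). The calls over all 16600 genes went from 5897 to 6573 with it. Leaving out 1 library ended the call of CEBPB for 11 of 16 (all but WT Ctr 1 and 4, WNK2 trans Ctr 1 and 2 and WNK2 trans Sor 1; adjusted p 0.0529 to 0.0902), of CRELD2 for WT Ctr 3 and 4, WT Sor 1, 2 and 4, WNK2 trans Ctr 3 and WNK2 trans Sor 3 and 4 (0.0523 to 0.104), and of SYVN1 for WNK2 trans Ctr 3 (0.0507).

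**Figure D4:**
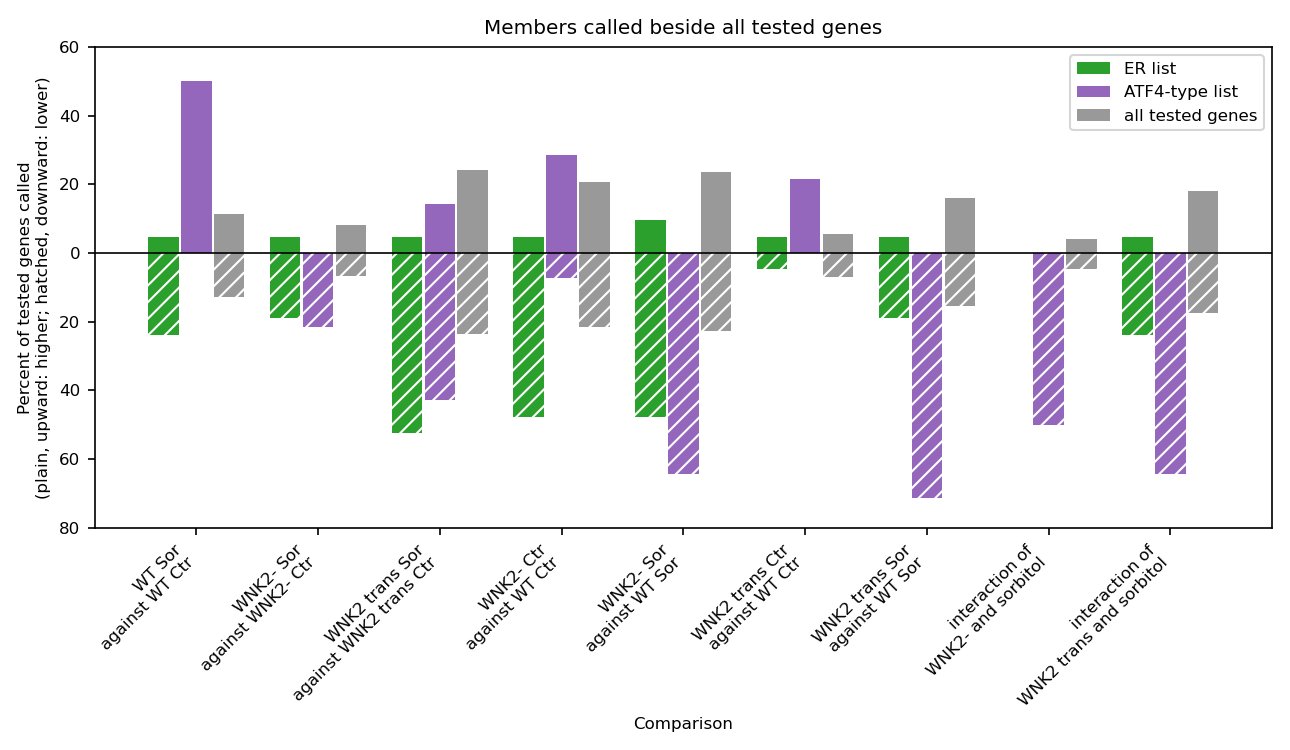
Percent of tested genes called in each comparison for the ER list (21 genes), the ATF4-type list (14) and all 16600 genes, with plain bars upward for higher and hatched bars downward for lower. In WT Sor against WT Ctr 7 of 14 ATF4-type genes were higher, beside 11.4% of all genes.

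Over the 7 pairwise comparisons, PDIA4 fell in 6 and HSP90B1 and HYOU1 in 5 each, the most of the ER list, and DDIT4 was called in 6, higher in 2 and lower in 4. MTHFD2 was called in 6 as well, higher in 3 and lower in 3. HSPA5 was higher in 2 and lower in 2. DNAJC3, a J-domain inhibitor of PERK, SEL1L, the HRD1 partner, ATF6 and SLC3A2, the heavy chain of the SLC7A5 transporter, were called by edgeR in 0 of the 7. At an unadjusted p under 0.05 ATF6 and SLC3A2 passed in 1 each and the others in 0, and DESeq2 called SLC3A2 in 1. ERN1 rose in 2 and EIF2AK3 fell in 1. The 7 comparisons share libraries, so these counts describe the members and are not 7 tests of each.

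Other genes of the same pathways came from 2 wider lists that hold no member. With sorbitol in WT cells, 8 of 53 tested ER genes fell, beside 12.7% of all genes, and the rest did not pass, led by SEC61G, a subunit of the ER protein channel (-0.96 ± 0.25), and RTCB, the ligase that joins spliced XBP1 mRNA (-0.44 ± 0.099). Of 50 ATF4-type genes 14 rose (11.4% of all genes) and 6 fell, with GDF15, a stress-induced secreted factor (1.75 ± 0.20), and SLC7A11, the cystine transporter (1.40 ± 0.34), highest and CASP4 (-0.45 ± 0.12) and EIF2B1 (-0.38 ± 0.10) lowest. Against the libraries labelled WNK2 trans Ctr, 4 of the 53 fell and 0 rose, and 4 of the 50 rose and 2 fell. The 50 lay between -0.47 and 0.83 there, beside 8.74% of all genes higher and 6.31% lower. With sorbitol in WNK2- cells 2 of the 53 rose and 4 fell, and 2 of the 50 rose and 5 fell, beside 8.25% of all genes higher and 6.64% lower. There CTH, an enzyme of cysteine synthesis, rose (0.83 ± 0.17) and JDP2 (-0.90 ± 0.17) and CBS (-0.76 ± 0.26) fell. In the interaction of genotype and sorbitol 11 of the 50 were lower, CBS (-1.70 ± 0.36) and SLC7A11 (-1.64 ± 0.46) furthest, and 4 of the 53 higher, SEC61G (1.11 ± 0.35) and SSR3 (0.72 ± 0.21) furthest, beside 4.66% of all genes lower and 3.99% higher. With the libraries labelled WNK2 trans Ctr in place of WT Ctr, 1 of the 50 was lower and 0 of the 53 passed. The 50 lay between -0.71 and 0.55 there, beside 2.3% of all genes lower and 1.09% higher.

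WNK2- Ctr against WT Ctr had 6 of 53 wider ER genes higher and 21 lower, with DERL1 (1.55 ± 0.34) and KDELR3 (-1.18 ± 0.16) at the ends, and 12 of 50 wider ATF4-type genes higher and 10 lower, with STC2 (1.84 ± 0.11) and ADM2 (-1.46 ± 0.22) at the ends, beside 20.7% of all genes higher and 21.5% lower. Against the libraries labelled WNK2 trans Ctr the counts were 7 and 22 of 53 and 10 and 15 of 50, beside 24% and 23.7% of all genes. Under sorbitol WNK2- against WT Sor had 10 and 18 of 53, with DERL1 at 1.23 ± 0.33 and FAM8A1 at -0.88 ± 0.11, and 9 and 19 of 50, with STC2 at 1.08 ± 0.11 and ADM2 at -2.58 ± 0.22, beside 23.7% and 22.7% of all genes. For the libraries labelled WNK2 trans Ctr against WT Ctr the counts were 1 and 1 of 53 and 7 and 1 of 50, CBS highest (1.19 ± 0.25) and ALDH1L2 the gene that fell (-0.88 ± 0.29), beside 5.57% and 6.98% of all genes. WNK2 trans Sor against WT Sor had 7 and 8 of 53, from DERL1 (1.58 ± 0.33) to FAM8A1 (-0.89 ± 0.11), and 7 and 14 of 50, from CTH (0.75 ± 0.18) to ADM2 (-1.59 ± 0.21), beside 16.1% and 15.5% of all genes. WNK2 trans Sor against WNK2 trans Ctr had 7 and 21 of 53, from DERL1 (2.33 ± 0.35) to FAM8A1 (-1.08 ± 0.11), and 11 and 17 of 50, from STC2 (1.31 ± 0.11) to JDP2 (-1.80 ± 0.17), beside 24.3% and 23.7% of all genes. Against the libraries labelled WT Ctr it had 3 and 15 of 53 and 9 and 13 of 50, beside 19.8% and 19.5% of all genes. The interaction with the transfection label was called higher for 8 and lower for 7 of the 53, and higher for 7 and lower for 15 of the 50, beside 18.1% and 17.4% of all genes, so several of these counts lay near the shares over all genes. DERL1 and DERL2 help retrotranslocate ERAD substrates, STC2 encodes a secreted glycoprotein, and ADM2 a peptide hormone.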

How the data were processed

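The authors deposited raw read counts per Ensembl gene for 24 poly(A)-enriched libraries of T/C-28a2 cells, 4 per group. The submitters' processing notes name GRCh38, FastQC 0.11.9, HISAT2 2.2.1, HTSeq 2.0.2 and DESeq2 1.38.3; the annotation release and strand setting are not given in the sources used here. The authors' methods name other versions of HTSeq and DESeq2.

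Here genes with low counts were dropped by filterByExpr, with a minimum count of 10 and a minimum total of 15. TMM factors were used, and 6 group means were fitted in edgeR 4.0.16 (R 4.3.3, limma 3.58.1) with its quasi-likelihood test, Benjamini-Hochberg adjustment over 16600 genes in each contrast and a threshold of 0.05. Normalized counts are counts divided by effective library size and multiplied by its mean, and FPKM divides by union exon length. Intervals are the estimate ± 1.96 standard errors. Alternatives were DESeq2 1.42.0, other scalings and filters, fits of the compared groups alone, a replicate block, a correction for GC content and length (splines with 5 degrees of freedom, 96.3% of genes), thinning, other reference groups (that of the interaction with WNK2- was added after the data were seen) and leaving out each library. Scripts were tested on simulated data.

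The members and lists were chosen with earlier results of these data known. Full values by library are given for ATF4, ATF6, ERN1, EIF2AK3, XBP1 and DDIT3 and, per pairwise comparison and list, for up to 3 largest rises and 3 largest falls among called members; for each interaction and list, up to 3 called members with the smallest p are added. From the wider lists, up to 2 rises and 2 falls per comparison could be named.

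Libraries of a group differed by more than sampling noise in all 36 pairs (chi-square per degree of freedom 2.24 to 60.8). Deviations of same-numbered libraries correlated at -0.273 to 0.223, over 0.1 in 4 of 28, so the numbers were not taken to pair libraries.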

Additional observations from a re-analysis of the deposited data

Results flagged for a closer look

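In 9 of 210 groups of 4 libraries, 1 library stood far from the other 3 by Dixon's test at 95%, which chance gives in about 1 in 20 groups. These were HSPA5 in WT Sor 4 (15976 normalized counts), PDIA6 in WT Ctr 2 (3928), MANF in WT Sor 3 (1292), ERN1 in WNK2 trans Ctr 3 (173.2), EIF2AK3 in WNK2- Ctr 1 (188.6), ATF4 in WNK2 trans Sor 1 (9804), TRIB3 in WNK2 trans Sor 1 (3413), DDIT4 in WNK2- Ctr 1 (647.1) and PHGDH in WNK2- Ctr 1 (5619).

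The sorbitol difference itself differed between WNK2- and WT cells for 7 ATF4-type genes, by log2 differences of -2.17 for DDIT4, -1.67 for CHAC1, -0.71 for SLC7A5, -0.69 for MTHFD2, -0.60 for PHGDH, -0.56 for TRIB3 and -0.55 for PSAT1 (edgeR, adjusted p 4.35e-05 to 0.0377). With the libraries labelled WNK2 trans Ctr in place of WT Ctr, DDIT4 was at -0.98 (adjusted p 0.081), CHAC1 at -0.99 (0.175), PHGDH at -0.39 (0.326) and MTHFD2 at -0.23 (0.593), and the other 3 held their calls. Under the transfection labels it differed from that in untransfected cells for 15 members. The ATF4-type genes among them were DDIT4 at -3.11, NUPR1 at -2.94, CHAC1 at -2.38, SESN2 at -1.11, MTHFD2 at -1.04, PHGDH at -0.98, CEBPB at -0.90, SHMT2 at -0.81 and ATF4 at -0.74. The ER genes were XBP1 at -0.68, CRELD2 at -0.51, DNAJB9 at -0.51, SYVN1 at -0.49, HYOU1 at -0.45 and HSPA5 at 0.44.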

How the results depend on the processing

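Of 120 called differences of single members, 76 held under every alternative, 44 lost the call under at least 1 and 3 also changed direction. The paragraphs above name only part of these losses. Of 195 not called, 89 gained a call somewhere. The counts of called members moved by over 1.5 times in these cases, and the cause was not tested. With the GC and length correction the ER count went from 6 to 13 in WT Sor against WT Ctr (6 higher, 7 lower), from 5 to 8 in WNK2 trans Sor against WT Sor, from 5 to 12 in WNK2- Sor against WNK2- Ctr, from 0 to 3 in the interaction with WNK2- and from 6 to 11 in that with transfection, and the ATF4-type count from 5 to 9 in WNK2- Ctr and from 3 to 6 in WNK2 trans Ctr, both against WT Ctr, and from 3 to 8 in WNK2- Sor against WNK2- Ctr. The calls over all 16600 genes rose under this correction too. In the order of the ER counts they went from 4008 to 5106, 5254 to 6202, 2473 to 3894, 1436 to 2228 and 5897 to 6573. For WNK2- Ctr and WNK2 trans Ctr against WT Ctr they went from 6996 to 8310 and from 2082 to 3127. Fitting only the compared groups leaves fewer libraries and takes the spread from these groups alone. WNK2 trans Ctr against WT Ctr then gave 0 ER and 1 ATF4-type gene, beside 747 of 14314 genes (2082 of 16600 in the main fit). WNK2- Sor against WNK2- Ctr gave 11 and 8, beside 4824 of 15617 (2473 of 16600). The interaction with WNK2- gave 1 ER gene, beside 2010 of 16144 (1436 of 16600). Without a filter the ER count was 0 in WNK2 trans Ctr against WT Ctr and 3 in WNK2 trans Sor against WT Sor, and thinned counts gave 1 in the former. Over all genes 1712 and 4660 of 30487 were called without a filter, and 1975 of 15828 with thinned counts. The replicate block brought the ER count of WNK2 trans Sor against WT Sor from 5 to 3 (HSPA5 and HERPUD1 at adjusted p 0.0567 and 0.0582), and the calls of CALR in WT Sor against WT Ctr, EIF2AK3 in WNK2- Ctr against WT Ctr and NUPR1 in WNK2 trans Ctr against WT Ctr were lost under it. In WNK2 trans Sor against WT Sor the block gave 5155 calls over all 16600 genes, against 5254 without it. Against the other isotonic group the counts were 2 ER and 4 ATF4-type genes for WT Sor, 10 ATF4-type genes for WNK2- Ctr and 5 for WNK2 trans Sor, and, chosen after the data were seen, 1 ER and 3 ATF4-type genes for the interaction with WNK2-. The shares over all genes there were 15.1%, 47.7%, 39.2% and 3.39% in the same order. Leaving out 1 library gave ranges of 0 to 2 ER and 2 to 5 ATF4-type genes for WNK2 trans Ctr against WT Ctr and 3 to 8 ER genes for WNK2 trans Sor against WT Sor. Some differences changed sign against the other isotonic group and were called with at least 1 of these references. With their values against that other group, they were MTHFD2 in WT Sor (-0.068), HSPA5 (0.20), SESN2 (-0.37) and MTHFD2 (-0.10) in WNK2- Ctr, and HSPA5 (-0.22) and DNAJB9 (0.017) in WNK2 trans Sor. Differences called with neither reference changed sign too, among them NUPR1 in WT Sor (1.09, and -0.32 against the other group). With the GC and length correction SLC7A5 in WNK2 trans Sor against WT Sor became 0.34, and in the interaction with transfection SDF2L1 became 0.48, PDIA6 -0.20 and SEL1L -0.27. Low counts limit NUPR1, at 4.74 to 99.0 normalized counts per library.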
